A study of Homo sapiens with 6 samples.

Results

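The transcriptome of SiHa cells that had received a control small interfering RNA (siRNA) was described from 3 of the 6 samples of the series. SiHa is an established human cervical carcinoma line that carries integrated human papillomavirus 16. The 3 samples, si-NC replicates 1, 2 and 3, were chosen by their labels. The other 3 samples of the series, in which the cells received an siRNA against CNN3, were not used and nothing here was compared with them. The cells grew in DMEM with fetal bovine serum and were transfected with si-NC. They were given fresh medium 24 h after transfection according to the labels, and were harvested 48 h after transfection. The study's methods give an earlier time for the medium change after siRNA transfection. All 3 samples are therefore transfected cells of 1 line, not untouched cells, and neither a second line nor a normal cervical epithelium stands beside them. The study's methods describe the 3 samples as coming from independent assays, and neither they nor the labels give the dates or passages of the cultures.

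Cells of a carcinoma keep, to a varying extent, the program of the epithelium they came from. Simple, one-layered epithelia make keratins 7, 8, 18 and 19. Stratified squamous epithelia, such as that of the outer cervix, make keratins 5 and 14 in their basal cells under the transcription factor TP63, and then involucrin, loricrin and small proline-rich proteins as they cornify. The viral oncoprotein E7 acts on the RB protein, and the loss of RB control is known to release E2F target genes and the inhibitor gene CDKN2A.

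The control siRNA is the only sequence that was added to these cells. Its sense strand was taken from the labels, and the strand complementary to it, which would be loaded as a guide, was derived from it. The seed, bases 2 to 8 of the guide, is in capitals.

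si-NC sense: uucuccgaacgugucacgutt

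si-NC guide from the reverse complement: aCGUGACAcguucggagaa

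Polyadenylated RNA was sequenced, and the deposited tables hold for each of 48162 Ensembl genes a read count and an FPKM (fragments scaled to transcript length and to library size). Summed over all genes, there were 20287139, 24976517 and 21740608 counts in replicates 1, 2 and 3. A count of 3 reads, the floor below which a level was not read, corresponds for a transcript of 1000 bases to 0.148, 0.120 and 0.138 FPKM in the 3 samples and to 0.0448 FPKM over the 3 together, and this covers counting error only. A gene was called expressed at a mean of at least 1 FPKM. The FPKM of all 73266 values above 0 returned a whole-number gene length, and that length lay within 1 base of the mean length of the gene's GENCODE 29 transcripts for 41.8% of 16140 protein-coding genes and within 1 base of the longest for 5.64%. The median length was 49.3% of the longest transcript, so the FPKM of a gene with many short annotated transcripts is set high. For several of the highest genes the rank per kilobase of the longest transcript is given as well. Replicate 2 stood apart in a small set of blood cell genes, described at the end, and those genes are given sample by sample wherever they appear.

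Of the 48162 genes, 13954, 13985 and 13965 reached 1 FPKM in the 3 replicates (13968 ± 15.7, SD, n = 3), 13949 reached it in the mean of the 3, and 13400 reached it in each of the 3. Protein-coding genes were the bulk of these, with 11516 of 19211 (59.9%) expressed, against 2433 of 28951 genes of other types (8.40%). No read at all fell on 3071 protein-coding genes. The level spanned several orders of magnitude, with 8594 genes at 10 FPKM or more, 1483 at 100 or more and 66 at 1000 or more. Protein-coding genes held 96.8% of the summed FPKM, long intergenic RNAs 0.541% and processed pseudogenes 0.269%.

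Expression was concentrated in few genes. The 10 highest held 6.66%, 6.45% and 6.57% of the summed FPKM in replicates 1, 2 and 3 (6.56% ± 0.104, SD, n = 3), the 100 highest held 22.8% ± 0.243 and the 1000 highest 54.6% ± 0.234. In each replicate 759, 781 and 773 genes held 50 percent of the summed FPKM. The 20 highest protein-coding genes were the same 20 in all 3 replicates, and 97 of the 100 highest were shared by all 3. Per kilobase of the longest transcript, 15 of the 20 and 77 of the 100 stayed in the list.

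**Figure D1:**
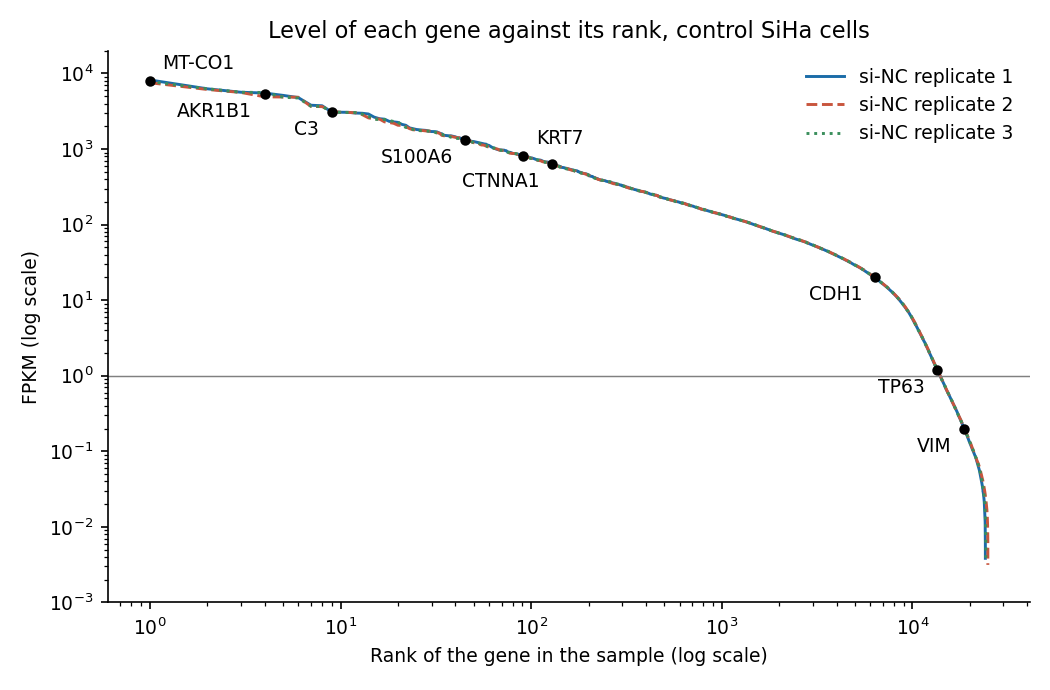
FPKM of each gene (vertical axis, log scale) against its rank within the sample (horizontal axis, log scale), with a line for each of the 3 si-NC replicates and points for the mean of 9 named genes. The 3 lines lie on each other down to about 1 FPKM (grey line), from MT-CO1 at a mean of 7859 FPKM through KRT7 at 799.8 to VIM at 0.200.

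The highest gene was MT-CO1, which encodes a core subunit of cytochrome c oxidase in the mitochondrial genome, with 8211, 7543 and 7822 FPKM. Replicate 1 was the highest and replicate 2 the lowest. The oxidase genes MT-CO3 (6234 ± 77.7 FPKM, SD, n = 3) and MT-CO2 (5649, 5611 and 5607) followed. All 13 mitochondrially encoded proteins were above 100 FPKM, with a median of 2078 FPKM, and together they held 4.63%, 4.50% and 4.53% of the summed FPKM.

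AKR1B1, the aldose reductase that turns glucose into sorbitol, was the highest nuclear gene by deposited FPKM with 5512, 4875 and 5646, the lowest value being that of replicate 2. Per kilobase of its longest transcript it had 2473 FPKM and rank 7, just below FTL, a ferritin chain that stores iron, with 2498 and rank 6. In reads EEF1A1 lay above it. The elongation factors EEF1A1 and EEF2, which carry translation forward, had 4968 ± 144 and 4794 ± 60.2 FPKM, with ranks 5 and 6 that became 12 and 17 per kilobase of the longest transcript. ACTB, cytoplasmic actin, had 3742, 3644 and 3688 FPKM and moved from rank 8 to 14. FTL stood at 2498 ± 22.4 FPKM and moved from rank 16 to 6. The glycolytic enzymes PKM and ENO1 had 2334 ± 47.3 and 2257 ± 56.3 FPKM.

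C3, the central protein of the complement cascade and mostly known as a product of the liver, was ninth of all genes with 3061, 3155 and 3083 FPKM. The SD of the 3 values was 48.9 FPKM, and replicate 2 was the highest. Its FPKM rests on a length of 874 bases where the longest transcript has 5263, and per kilobase of the longest transcript C3 had 515 FPKM and rank 66. The read counts behind it were 54280, 68867 and 58586.

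Ribosomal protein genes filled much of the remaining top ranks. Of 87 genes of cytosolic ribosomal proteins in the files, 84 were expressed and 71 were at 100 FPKM or more, and they held 9.74%, 9.61% and 9.50% of the summed FPKM. RPL8 had 3073 ± 8.89, RPL41 3058 ± 15.9, RPS2 3017 ± 20.6 and RPL13 2889 ± 30.7 FPKM, the last of these moving from rank 13 to 46 per kilobase of the longest transcript. Among the expressed members the lowest were RPS10 (2.14 FPKM), RPL17 (4.08) and RPL36A (9.37), followed by RPL22L1 (12.1) and RPL39L (19.6). Each of the first 3 overlaps, on its own strand, a read-through gene model (RPS10-NUDT3, RPL17-C18orf32 and RPL36A-HNRNPH2), and reads shared by such models may not be counted for either, so their levels are uncertain. RPL3L, a muscle form, had 0.669, 0.362 and 0.458 FPKM.

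The start regions of the most abundant genes were read from RefSeq (GRCh38.p14), which gave a window from 250 bases before to 50 after the start for 14951 of 18501 nuclear protein-coding genes (80.8%) on the chromosomes its table covers. A TATA core was counted where TATAAA stood on the gene's strand with its first base at −35 to −25 from the start. All 14951 windows held it in 3.50%, and those of expressed genes in 1.68% (158 of 9424). By level, the genes at 1 to under 10 FPKM held it in 2.38% and those at 10 to under 100 in 1.01%. Those at 100 to under 1000 held it in 3.04%, and those at 1000 or more in 8.51% (4 of 47). These 4 are EEF2, RPLP0, PPIA and CALR, and they are shown because they are every TATA core found among the highest genes. Each line gives 30 bases, 5′ to 3′ on the gene's strand, with the motif in capitals.

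EEF2, chr19:3985476-3985505, minus strand: ccggcgtccgccTATAAAaagctgagtgtt

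RPLP0, chr12:120201121-120201150, minus strand: ctttgttcgcatTATAAAaggcacgcgcgg

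PPIA, chr7:44796638-44796667, plus strand: ggccgaacgtggTATAAAaggggcgggagg

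CALR, chr19:12938567-12938596, plus strand: gaggcgggtgggTATAAAagtgcaaggcgg

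The first base of the motif lay at −30, −27, −31 and −30 in these 4 genes. A start at a C followed by 4 pyrimidines, the form known from genes of the translation machinery, was found in 4.70% of all windows, in 4.64% of those at 10 to under 100 FPKM, in 10.3% of those at 100 to under 1000 and in 40.4% (19 of 47) of those at 1000 or more. Of 69 ribosomal protein windows, 63.8% (44) began in this way. Of the genes without a read and of those under 1 FPKM, fewer than 80% had a window (74.8% of those with reads under 1 FPKM), so this check is void for them. The windows they did have are part of the shares of all windows. These windows held the TATA core in 9.10% without a read and in 4.98% under 1 FPKM, so no trait particular to the highest genes is read from it. A match says only that these letters stand in the window.

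Among genes of other types, many of the highest were copies or unnamed. ENSG00000258486, which GENCODE 29 does not name, had 2977, 2056 and 2705 FPKM over a length of 300 bases, lowest in replicate 2. The pseudogenes RPS28P7 (423 ± 42.4 FPKM) and MTATP6P1 (360 ± 21.5) are near-identical to RPS28 and MT-ATP6, so their reads cannot be assigned with certainty. GPX1, which encodes a glutathione peroxidase and is listed as a polymorphic pseudogene, had 367 ± 8.90 FPKM. SNHG19, a host of small nucleolar RNAs, had 297 ± 9.44 FPKM.

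All 4 simple epithelial keratins were expressed, and 2 of the 5 keratins listed for activated or hyperproliferative squamous cells. KRT7 had 802, 810 and 787 FPKM, and KRT8 had 544, 514 and 534. KRT18, the usual partner of KRT8, had 118, 108 and 117 FPKM, and KRT19 had 6.81, 6.99 and 6.36. KRT7 lay above KRT8, KRT8 above KRT18 and KRT18 above KRT19 in each replicate. KRT17, a keratin of wounded and hyperproliferative epithelium, had 193, 180 and 187 FPKM, and its relative KRT16 7.44, 7.19 and 7.49. KRT6A, of the same group, had 1.03, 0.921 and 0.806 FPKM, KRT6B had 0, 2 and 0 reads and KRT6C 0, 3 and 0.

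Keratins that define a stratified squamous epithelium were low or absent. KRT5 had 0.501, 0.448 and 0.281 FPKM from 10, 11 and 6 reads. KRT14, its partner in basal cells, had 0, 1 and 1 reads, and KRT13, of the outer layers of moist squamous epithelium, had 0, 0 and 1. No read fell on KRT1 or KRT2, keratins of the epidermis. KRT15 (1.89 ± 0.0557 FPKM) was the only 1 of the 3 basal keratins listed that was expressed. KRT10, otherwise the partner of KRT1, had 24.9, 24.2 and 23.2 FPKM. Of 24 keratins in the list 9 were expressed (37.5%, against 59.9% of all protein-coding genes), 4 of them at 100 FPKM or more.

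Most junction genes listed were expressed, with gaps among the desmosomal cadherins and low levels among tight junction genes. All 7 adherens junction genes were expressed. CTNNA1, alpha-catenin, had 615, 633 and 644 FPKM and CTNNB1, beta-catenin, 275, 285 and 288. CDH1, E-cadherin, had 20.4, 20.2 and 19.5 FPKM and CDH3, P-cadherin, 17.9 ± 0.267. EPCAM, an adhesion protein of simple epithelia, had 5.89, 5.00 and 5.46 FPKM.

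Of 8 desmosomal genes 5 were expressed. The plaque protein PKP3 had 113 ± 3.63 FPKM and PERP, a membrane protein of desmosomes, 113 ± 1.66. DSG2, the desmoglein of simple epithelia, had 39.8, 41.4 and 41.5 FPKM, while DSG3, that of squamous epithelia, had 0, 1 and 2 reads. Both desmocollins listed were close to 0, DSC2 with 1 read in each replicate and DSC3 with 1, 5 and 1. Tight junction genes were lower, with a median of 2.36 FPKM over the 9 listed, of which 8 were expressed. TJP1, a scaffold protein, had 43.1 ± 0.547 FPKM, F11R, a junctional adhesion molecule, 36.9 ± 0.783 and CLDN1, a claudin of squamous epithelium, 12.6, 10.5 and 10.6. CLDN3 had 0.116, 0.126 and 0.397 FPKM and CLDN4 1.03, 0.764 and 1.22, which is around the threshold. TJP3 had 4.83 ± 0.149 FPKM, CLDN7 2.36 ± 0.243, OCLN 2.11 ± 0.157 and CGN 1.86 ± 0.0664. In the hemidesmosome, PLEC (plectin) had 176, 183 and 174 FPKM, ITGA6 37.9 ± 1.14 and LAMB3 12.7 ± 0.261, while COL17A1 had 0.528, 0.541 and 0.514. In all 27 of 32 junction genes were expressed (84.4%, against 59.9% of all protein-coding genes). The median over the 32 was 11.6 FPKM, where all protein-coding genes had a median of 4.91.

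**Figure D2:**
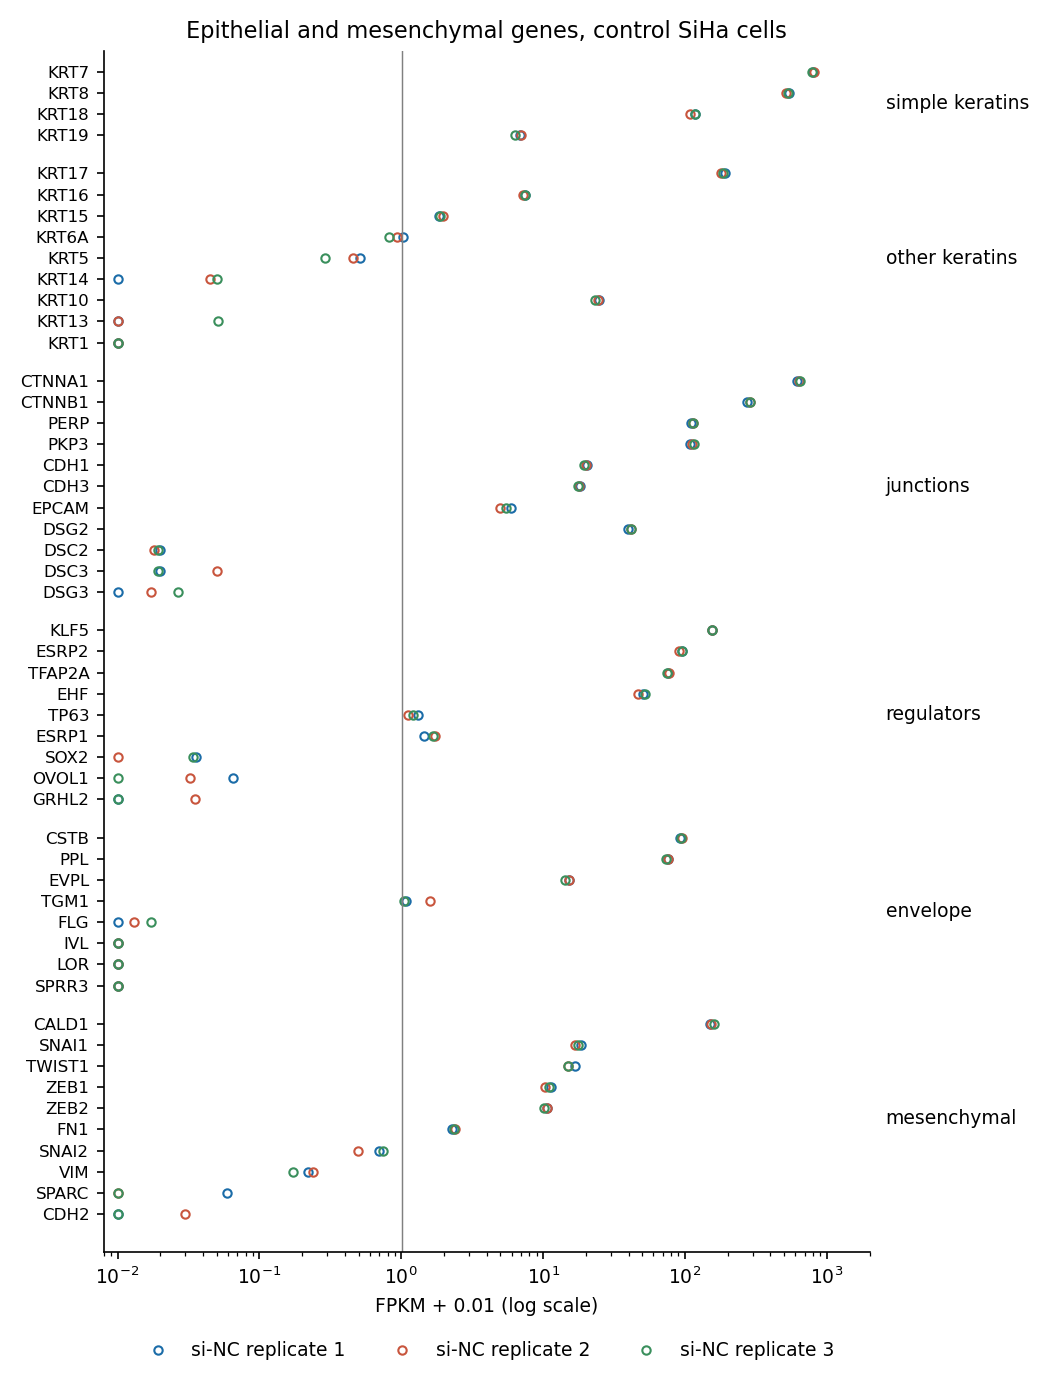
FPKM plus 0.01 (horizontal axis, log scale) of epithelial and mesenchymal genes in the 3 si-NC replicates (1 circle each), grouped by role, with the grey line at 1 FPKM and genes without a read at the left edge. KRT7, KRT8, CTNNA1 and KLF5 lie above 100 FPKM in each replicate, and KRT14, DSC2, SOX2, IVL and CDH2 lie below 0.1.

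Transcription factors of the squamous lineage were split. KLF5 had 155, 155 and 154 FPKM, TFAP2A 75.6, 76.7 and 74.9 and TFAP2C 39.2, 40.9 and 42.0. TP63, which defines squamous basal cells, was just above the threshold with 1.30, 1.11 and 1.19 FPKM (60, 63 and 59 reads), and SOX2, often on with it, had 1, 0 and 1 reads. Among factors of the epithelial state, the ETS factor EHF had 50.9, 46.6 and 52.6 FPKM and ELF3 7.68 ± 0.742, whereas GRHL2 had 0, 1 and 0 reads and OVOL1 2, 1 and 0. The splicing factor ESRP2 stood at 93.6 ± 2.63 FPKM and its relative ESRP1 at 1.45, 1.72 and 1.67, so ESRP2 was higher in each replicate. SPINT2, an inhibitor of matriptase, had 154 ± 3.70 FPKM and matriptase itself, ST14, 4.29 ± 0.218.

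Cornification genes were mostly without a read. Of 14 cornified envelope genes 8 had none in any replicate, among them IVL (involucrin), LOR (loricrin), SPRR1A, SPRR1B, SPRR2A, SPRR2D and SPRR3. FLG, filaggrin, had 0, 1 and 2 reads. The plakins PPL (75.1 ± 1.21 FPKM) and EVPL (14.8 ± 0.524), which serve desmosomes as well as the envelope, were on, and TGM1, the cross-linking enzyme, had 1.06, 1.59 and 1.04 FPKM. The protease inhibitors CSTB and CSTA had 94.2 ± 1.11 and 21.3 ± 1.26 FPKM. S100A8 had 0.938, 7.07 and 1.43 FPKM and S100A9 6.15, 11.4 and 4.07, both highest in replicate 2 with the blood cell genes below. Over the list 9 of 23 genes were expressed (39.1%, against 59.9% of all protein-coding genes), with a median of 0.0633 FPKM.

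Genes of glandular and Müllerian epithelium were few. MUC1, a membrane mucin, had 65.1, 65.4 and 64.9 FPKM, WFDC2 36.7, 33.2 and 31.4, and PAX8, a factor of the Müllerian tract, 10.3, 9.50 and 9.18. Of the 4 genes listed as marking the squamocolumnar junction, CD63 had 388 ± 2.95 FPKM and GDA 6.15 ± 0.353, AGR2 had no read and MMP7 had 1, 0 and 0. The secreted mucin MUC5AC and the trefoil peptide TFF3 had no read. The hormone receptors ESR1 and PGR had at most 1 read in any replicate. Only 5 of 17 genes in this list were expressed (29.4%, against 59.9% of all protein-coding genes).

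Of 18 mesenchymal genes 12 were expressed (66.7%, against 59.9% of all protein-coding genes), with a median of 9.98 FPKM. Of the 7 filament, cadherin and matrix genes 3 were expressed, and 4 were under 1 FPKM. VIM, the vimentin filament, had 6, 8 and 5 reads (0.209, 0.227 and 0.163 FPKM), CDH2, N-cadherin, had 0, 1 and 0, SPARC, a matrix protein, had 1, 0 and 0 and CDH11, a cadherin of mesenchyme, 2, 1 and 0. FN1, fibronectin, had 2.26, 2.37 and 2.33 FPKM. Factors known for driving epithelial-mesenchymal transition were on at the same time. SNAI1 had 18.6, 16.6 and 17.7 FPKM, TWIST1 16.7, 15.0 and 15.0, ZEB1 11.3, 10.3 and 10.9, ZEB2 10.6, 10.6 and 10.2 and TWIST2 9.89, 9.33 and 9.31. SNAI2 had 0.689, 0.485 and 0.729 FPKM. Of the 7 factors listed 5 were expressed, with replicate ranges that overlapped between ZEB1 and ZEB2. CALD1, which binds actin, had 154 ± 4.62 FPKM, S100A4 50.9 ± 2.09, TGFBI, a matrix protein induced by TGF-beta, 39.8, 33.6 and 34.5, and MMP2, a gelatinase, 12.7 ± 0.731.

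Genes of cell cycle control and proliferation were almost all on. MDM2, a ubiquitin ligase, had 39.7 ± 1.36 FPKM and the kinase inhibitor CDKN1A 102, 94.6 and 92.7. CDKN2A, which encodes p16, had 337, 349 and 350 FPKM and RB1 63.9, 69.9 and 65.4. CDK4 was at 137 ± 3.70 FPKM but CDK6 at 0.819 ± 0.0298 and CCND1, cyclin D1, at 3.67, 4.97 and 4.18. The replication helicase was abundant, with MCM4 at 741 ± 9.67, MCM7 at 393 ± 2.30 and MCM2 at 254 ± 1.97 FPKM, as were TOP2A (370, 389 and 378) and MKI67 (139 ± 0.236). TERT, the catalytic subunit of telomerase, had 8.62, 8.09 and 8.21 FPKM. Over the list 29 of 30 genes were expressed (96.7%, against 59.9% of all protein-coding genes). The median was 94.1 FPKM, and 14 genes were at 100 or more. Transcripts of the virus were not analysed here.

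SiHa is known to carry its viral DNA on chromosome 13, between KLF5 and KLF12. Of 9 genes listed around that site 7 were expressed. KLF5 was at 155 FPKM and KLF12 at 0.520, 0.566 and 0.660. LINC00393 had 3.47, 4.17 and 3.83 FPKM from 27, 40 and 32 reads, and LINC00392 had no read. DIS3 (16.4 ± 0.104), PIBF1 (13.1 ± 1.62), MZT1 (11.9 ± 0.0961) and TBC1D4 (11.5 ± 0.126) lay close together. On chromosome 13 as a whole 59.2% of 311 protein-coding genes were expressed, with a median of 13.1 FPKM among these, the lowest of the 23 chromosomes given.

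Antigen presentation by class I was on. B2M, the light chain, had 978, 1019 and 1026 FPKM, HLA-B 195, 191 and 188 and HLA-C 72.2, 75.5 and 79.7, and the class I heavy chain genes resemble each other so that reads may be split among them. All 7 genes for peptide loading were expressed, with a median of 23.1 FPKM. HLA-G had no read. Of the class II genes 3 of 7 were expressed, the highest being CIITA with 4.54 ± 0.330 FPKM. CD274, the ligand of PD-1, had 0.480, 0.390 and 0.342 FPKM, and CD47 28.0 ± 0.955.

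HOX genes, which record the position of a cell along the body axis, were expressed in all 4 clusters. Of 39 genes 29 were expressed (74.4%, against 59.9% of all protein-coding genes). They were 9 of 11 in HOXA, 7 of 10 in HOXB, 8 of 9 in HOXC and 5 of 9 in HOXD. The share in HOXD, 55.6%, lay below that of all protein-coding genes. The highest were HOXD10 with 37.3, 38.8 and 35.3 FPKM, HOXA9 with 25.3, 24.8 and 24.1, HOXA5 with 22.4, 20.4 and 20.7 and HOXB7 with 18.9, 22.1 and 20.6. HOXD10 lay above all others in each replicate, while the values of HOXA5 and HOXB7 overlapped. HOXB1 had no read, and HOXD1 had 0, 1 and 3. HOTAIR, a long noncoding RNA from the HOXC cluster, had 9.40, 9.07 and 9.14 FPKM and HOTAIRM1, from HOXA, 17.8, 17.6 and 17.6, while HOTTIP had 0.690, 0.560 and 0.498.

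**Figure D3:**
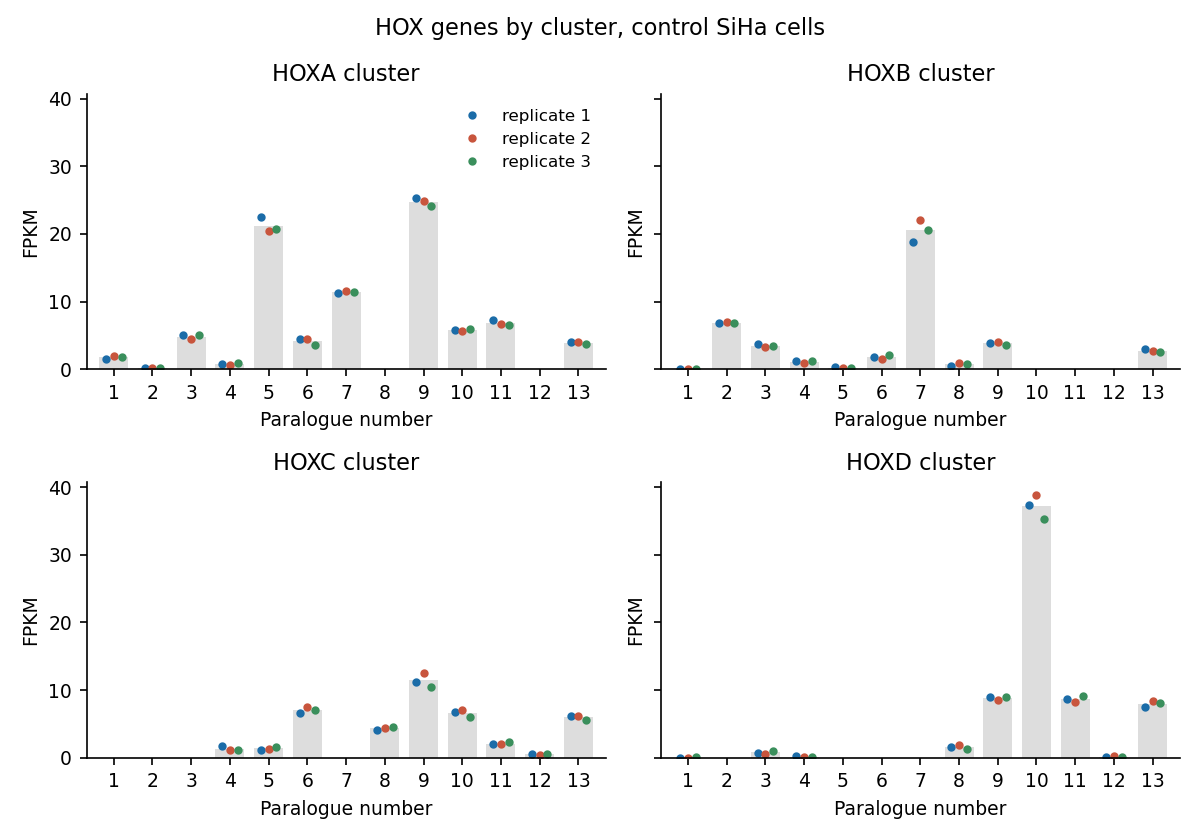
FPKM of the HOX genes by cluster and paralogue number, with grey bars for the mean and 1 point for each si-NC replicate. HOXD10, HOXA9, HOXA5 and HOXB7 are the 4 highest, and HOXB1, HOXD1 and HOXD4 are at or near 0.

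In a list of 28 chosen long noncoding RNAs 24 were expressed, with a median of 29.3 FPKM. The list does not stand for its class. Of all 6153 long intergenic RNAs 424 were expressed, and of all genes other than protein-coding 8.40%. SNHG5 had 178, 217 and 166 FPKM and was highest in replicate 2. The nuclear RNAs MALAT1 and NEAT1 had 173, 177 and 192 and 169, 175 and 176 FPKM. ZFAS1 (165 ± 2.89), OIP5-AS1 (149 ± 3.54) and GAS5 (107 ± 2.43) were also above 100. MEG3, an imprinted RNA, had 0, 1 and 0 reads and MIR205HG, the host of a squamous microRNA, had none.

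Defining genes of other cell types were near 0. Of 74 listed genes 11 were expressed (14.9%, against 59.9% of all protein-coding genes). No read in any replicate fell on 25, and the median was 0.0264 FPKM. The 11 include HBB (0, 13.1 and 0 FPKM) and HBA2 (0.183, 2.60 and 0.256), which reached the threshold only through replicate 2, and without that replicate 9 were expressed (12.2%), CD3E also falling below the threshold and COL3A1, a fibroblast collagen, passing it. CD14, a co-receptor for bacterial lipopolysaccharide best known from monocytes, was the only 1 above 10, with 138, 129 and 140 FPKM from 3059, 3517 and 3318 reads. Among the other leukocyte markers, CD3E had 23, 46 and 39 reads (0.773, 1.26 and 1.22 FPKM), PTPRC had 17, 18 and 7 reads, CSF1R 11, 7 and 4, and CD3D and CD4 had none. POU5F1 (7.65 ± 0.270 FPKM), which has several near-identical retrocopies and is uncertain for that reason, and MITF (7.35 ± 0.0644) were followed by ACTA2 (5.43 ± 0.421) and SYP (5.20 ± 0.465). NANOG had 1, 0 and 0 reads. No read fell on ALB, TTR, INS, CDX2, MYOD1 or DDX4. Of 5 endothelial, 6 liver, 5 pancreatic and 5 intestinal genes 0 were expressed.

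Several families were mostly without a read. Of all 19211 protein-coding genes 3071 had no read in any replicate. Of 354 olfactory receptors 320 had no read in any replicate and 2 were expressed, OR2B6 with 1.78, 1.23 and 2.05 FPKM and OR2A7 with 1.55, 1.04 and 0.536. Of 92 keratin-associated proteins, which build hair, 86 had no read and 0 were expressed. Late cornified envelope and small proline-rich proteins had no read for 26 of 28 and no member expressed. Immunoglobulin and T cell receptor segments had no read for 318 of 342. Of 17 type I interferons 14 had none, and of 53 antigens of the MAGE, GAGE, PAGE, XAGE, SSX and CTAG families, which are normally confined to the testis and often switched on in tumours, 31 had none and 0 reached 1 FPKM. Among 39 beta-defensins 35 had no read, and DEFB1, made constitutively by many epithelia, had 11.2, 10.1 and 9.72 FPKM.

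Other families were in between. Of 51 clustered protocadherins 5 were expressed, led by PCDHB14 with 7.97 ± 0.0187 FPKM, and of 35 voltage-gated potassium channels 5 were. Claudins had 6 of 24 expressed, the highest being CLDN12 with 35.7, 37.9 and 35.4 FPKM. By contrast 362 of 500 ZNF zinc finger genes (72.4%), 14 of 19 S100 genes and 36 of 38 proteasome genes were expressed. Of all protein-coding genes 59.9% were. S100A6 had 1316, 1325 and 1330 FPKM and S100A11 538, 519 and 537. Of 36 replication-dependent histones, whose messages normally lack a poly(A) tail, 24 were expressed, HIST1H2BK highest with 291, 278 and 305 FPKM. The TATA core stood in 62.5% of 32 histone windows, in 41.0% of 78 windows of keratin-associated proteins and in 0% of 284 windows of olfactory receptors, beside 3.50% of all windows.

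Some silent genes lay in long runs, but most did not. On the autosomes and X, the 4999 protein-coding genes under 0.1 FPKM in every replicate formed 2541 runs. The 8066 genes at 10 FPKM or more in every replicate formed 3995. The longest run of neighbouring protein-coding genes under 0.1 FPKM in every replicate held 60 genes on chromosome 11, from OR4B1 to APLNR (48216810 to 57237314 on GRCh38, 9.02 Mb), and crosses the centromere. It is made mostly of olfactory receptors, and 59 of these genes in a row had no read. Another 44 genes lay on chromosome 1 from NLRP3 to OR14I1 (247416156 to 248682304). The epidermal differentiation region of chromosome 1, from RPTN to PGLYRP4 (152153595 to 153348840), was a run of 43 genes, and the keratin and keratin-associated genes of chromosome 17, from KRTAP3-1 to KRT13 (41008521 to 41505705), a run of 42. The longest run at 10 FPKM or more in every replicate held 23 genes on chromosome 9, from C9orf16 to LRRC8A (128160260 to 128918039).

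Around the threshold of 1 FPKM, GCSAM had 0.967, 0.818 and 1.20 FPKM and FOLR1 1.29, 1.01 and 0.703, just below it in the mean, and ESR2 (1.12, 1.06 and 0.829), CHRNA3 (0.817, 1.16 and 1.03) and EEPD1 (1.08, 1.11 and 0.813) lay just above. Each of these 5 genes crossed the threshold between replicates, on counts of 17 to 57 reads.

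The replicates were close to each other. With a mean count of at least 10 the median coefficient of variation (CV) of the normalised counts was 4.75%, where counting alone gives 3.95%, and with a mean count of at least 100 it was 3.31% against 2.79%. Of genes with at least 100 counts 70.9% had a CV under 5%, and 28 had a CV over 20%. The common biological coefficient of variation of edgeR was 0.0209. A chi-square test of each gene's 3 counts against their library sizes, adjusted by the Benjamini-Hochberg method at a false discovery rate of 0.05, found 384 of 16060 genes (2.39%) to vary beyond counting noise. With 1 replicate left out the number was 232 without replicate 1, 102 without replicate 2 and 206 without replicate 3. Depth decides how much of the spread can be seen: 0.807% of the 2603 genes with 10 to 30 counts and 36.5% of the 271 genes with at least 10000 counts were called. Each pair of replicates differed by more than counting noise, with a chi-square per degree of freedom of 1.90 (replicates 1 and 2), 1.55 (1 and 3) and 1.86 (2 and 3), so none is a copy of another.

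**Figure D4:**
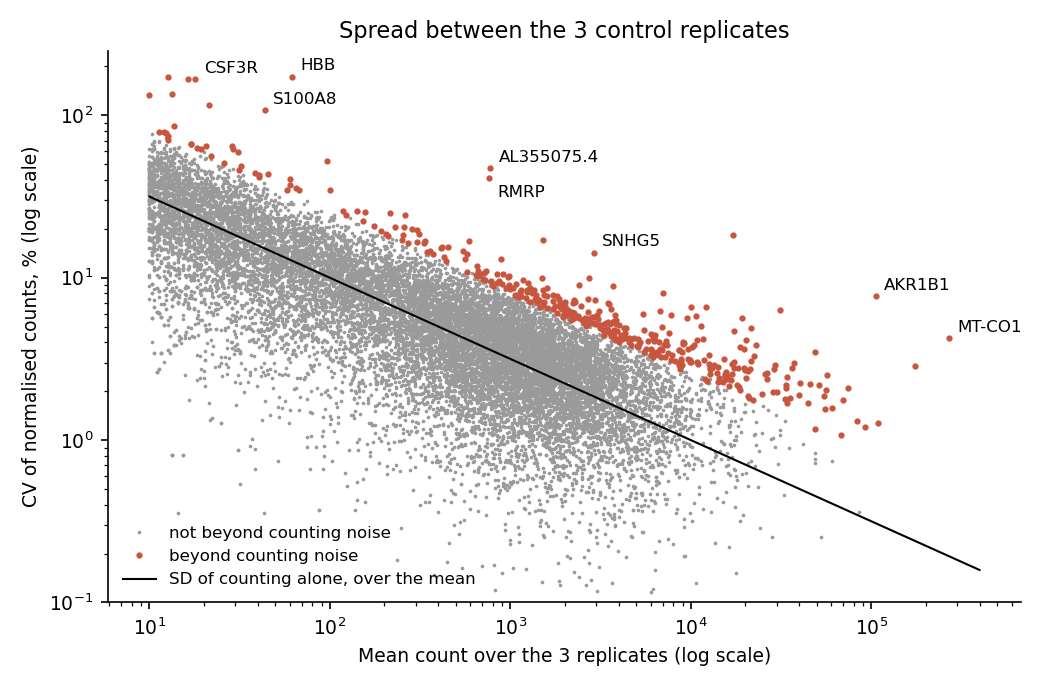
CV of the normalised counts over the 3 si-NC replicates (vertical axis, percent, log scale) against the mean count (horizontal axis, log scale) for genes with a mean count of at least 10, with the 384 genes beyond counting noise in red and the spread of counting alone as a line. Most genes lie around the line, and AKR1B1, MT-CO1, RMRP, AL355075.4, HBB and S100A8 stand well above it.

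Among genes with at least 100 counts, the 10 furthest beyond counting noise were led by AKR1B1, with a variance 677 times that of counting and a CV of 7.74%. ENSG00000258486 had 608 times and 18.3%, and MT-CO1 488 times and 4.25%. A pair of short RNAs without a usual poly(A) tail moved more. AL355075.4 had 883, 407 and 1035 counts (CV 47.6%), and its gene model on chromosome 14 (20343048 to 20343685, minus strand) contains RPPH1, the RNA of RNase P, on the same strand (20343075 to 20343407). RMRP, the RNA of RNase MRP, had 855, 462 and 974 counts (CV 41.2%). In both replicate 2 was the lowest. The others were EEF1A1, RPL37, ACTG1, SNHG5 and MALAT1, with CVs from 2.84% to 14.3%.

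Of the listed genes 17 of 222 tested (7.66%, against 2.39% of all genes) were beyond counting noise. The 2 shares are not matched for depth, which decides how many genes are called, so their difference is not read as a trait of the lists. Of these 17, HBB, HBA2, LYZ, S100A8 and S100A9 are blood cell genes high in replicate 2, and SNHG5, MALAT1, NEAT1 and SNHG1 are long noncoding RNAs. KRT8 and KRT18 were both lowest in replicate 2, with CVs of 2.90% and 4.77%. ITGB4 was lowest in replicate 3 with 7.44, 7.46 and 5.83 FPKM (CV 13.5%), and TGFBI was highest in replicate 1 (CV 9.22%). Of 85 ribosomal protein genes tested 31 were called, and 17 of these stood out by a high replicate 1. Across genes with at least 100 counts, the level in replicate 1 relative to the mean of the 3 varied weakly with the longest transcript. Its Spearman rho was −0.0974 with length and 0.161 with GC content. Replicates 2 and 3 had 0.107 and −0.0113 with length and −0.0731 and −0.0862 with GC content, so weak trends were not confined to replicate 1. Whether these trends bear on the ribosomal protein genes was not tested. RPL37 had 872, 813 and 768 FPKM. Of all genes with at least 10000 counts 36.5% were called, so the share among ribosomal protein genes, many of which have high counts, is read against that. The match is rough, since some of them, such as RPS10 with 38, 30 and 31 counts, lie far below. Of all 384 genes the replicate furthest from the others was replicate 1 in 66 high and 42 low, replicate 2 in 86 high and 84 low and replicate 3 in 54 high and 52 low.

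Replicate 2 contained more reads of many blood cell genes, and part of these genes had few or no reads in the other replicates. HBB, the beta chain of haemoglobin, had 0, 185 and 0 counts in replicates 1, 2 and 3, and HBA2, an alpha chain whose copy HBA1 is near-identical, had 2, 35 and 3. CSF3R, the receptor of the neutrophil growth factor, had 0, 53 and 1. The immunoglobulin heavy chains IGHG1 and IGHM had 1, 48 and 0 and 0, 38 and 0 counts. In each of these 5 genes replicate 2 was the only high one. HBA1 had 11, 23 and 12 counts, and ALAS2, a red cell gene, had 8, 5 and 7.

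The pattern ran through neutrophil genes. S100A8 had 11, 102 and 18 counts, S100A9 72, 165 and 51, LTF (lactoferrin) 1, 26 and 2, LYZ (lysozyme) 2, 26 and 2, FCGR3B 0, 20 and 0 and S100A12 0, 14 and 0. Of 28 genes with at least 10 counts in replicate 2 and more than 4 times the level of each other replicate, most are known from blood cells, and they held 820 reads, or 32.9 CPM (counts scaled to library size) in sum. PEG10 (2, 51 and 11) and CHGB (1, 25 and 1) are not blood cell genes. The same rule found 2 genes for replicate 1 and 7 for replicate 3, with 20 and 82 reads.

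Over a list of 38 blood cell genes without CD14, which was drawn up after these values were seen, the replicates had 177, 946 and 166 reads, which is 8.72, 37.9 and 7.64 CPM, and 28 of the 38 were highest in replicate 2. Within the list, the 15 neutrophil genes had 91, 433 and 74 reads. IGKC, CD3D, CD4 and HBD had no read in any replicate, and PTPRC, found on all leukocytes, had 17, 18 and 7. They decide the mean of HBB, which was 4.38 FPKM over the 3 replicates and which had no read without replicate 2. HBA2 had 0.183, 2.60 and 0.256 FPKM, so that it passed 1 FPKM in the mean only through replicate 2. The cause was not tested.

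**Figure D5:**
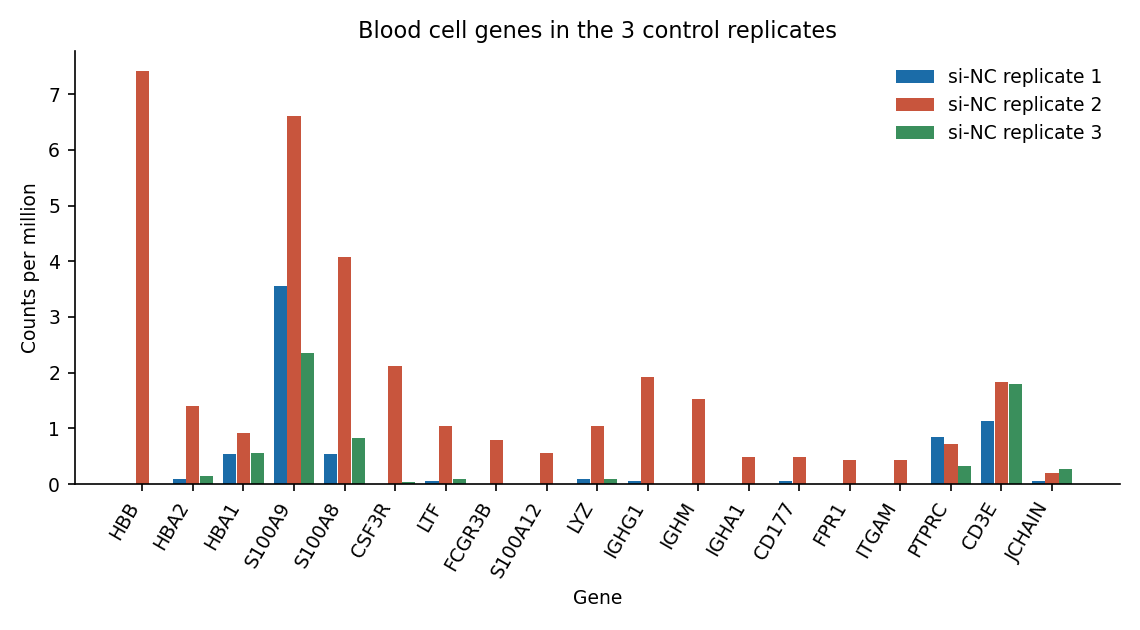
CPM (vertical axis, from 0) of 19 blood cell genes in the 3 si-NC replicates, 1 bar each. HBB, CSF3R, FCGR3B, S100A12, IGHM and IGHA1 show a bar in replicate 2 and almost none elsewhere, while PTPRC (17, 18 and 7 reads), CD3E (23, 46 and 39) and JCHAIN (1, 5 and 6) do not stand out in replicate 2 in this way.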

How the data were processed

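Only the 3 si-NC samples were used. The authors prepared libraries with the Illumina TruSeq RNA kit, which does not mark strand. Per the submitters' processing notes, TopHat2 2.0.9, Bowtie2 2.0.6, HTSeq and DESeq 1.10.1 were used. The genome build and annotation are not given in the sources used here. The authors deposited raw read counts per Ensembl gene, and FPKM values that they computed from the same counts, gene length and column total. Without strand, reads of overlapping antisense genes cannot be told apart. GENCODE 29 (GRCh38) named 45342 of the 48162 genes.

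From these files, levels were ranked, summed by class and summarised by list with the mean and SD of 3 replicates. Counting noise was tested per gene with a chi-square over TMM-scaled library sizes (edgeR 4.0.16, R 4.3.3, scipy 1.17.1), at a mean count of at least 10, with Benjamini-Hochberg adjustment at 0.05. DESeq2 1.42.0 was an alternative. The chi-square was tested on Poisson counts simulated from the real means of 16060 genes. It made 0 calls with no gene changed, which the Poisson draw makes likely in advance. With 200 genes changed in 1 sample it recovered 67% at a fold of 1.5 and 86% at a fold of 2, with 9 false calls. The simulation holds no spread between cultures, so it covers counting noise only.

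Named genes are the 20 highest protein-coding and 5 highest noncoding ones. From each role of a list, up to 4 of the highest and the defining members at or near 0 are named. Expressed members of the families described, the 10 furthest beyond counting noise with the list genes that passed, and genes around the threshold are named as well. In long families and lists only part of these are printed. RPS10, RPL17, RPL36A, RPL3L, RPL22L1, RPL39L, PEG10, CHGB, CLDN7, OCLN and CGN were named after their values were seen. The lists and the samples were chosen with earlier results of these data known. XIST and Y-linked genes are not reported here. DACH1, PECAM1 and CCAT1 were not analysed here, and some listed genes that are counted in their lists are not reported by name.

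Alternatives covered the threshold, the unit, the genes included, the normalisation and the filter, and leaving out each replicate. Lengths of the longest transcript and list counts without replicate 2 were added after the data were seen.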

Additional observations from a re-analysis of the deposited data

How the results depend on the processing

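No paired analysis was possible because only 1 group was used and no groups were compared. Of 173 alternative values 124 lay within the limit set for them and 49 moved. The limit was the SD between replicates for levels and shares, and 1.5 times for a count. For the common biological coefficient of variation and the median CV it was the SD of the values with 1 replicate left out. For the share of TATA cores it was the 95% binomial confidence interval of the main value. The 124 include class shares with 1 replicate left out. The mean of the remaining 2 cannot leave the SD of the 3, so those values show nothing about stability. The number of genes above the threshold became 20952 at 0.1 FPKM. The share of the 100 highest genes became 17.2% of reads, 20.2% without mitochondrially encoded genes, 23.3% among protein-coding genes and 28.7% per kilobase of the longest transcript. In reads and per kilobase of the longest transcript, ribosomal proteins held 5.93% and 10.2%, mitochondrially encoded proteins 3.16% and 9.53%, keratins 0.151% and 0.199%, S100 proteins 0.148% and 0.561% and proteasome subunits 0.428% and 0.597%.

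The median level of a list, back-transformed from log2(FPKM + 1), rose when members under 1 FPKM were left out, by construction, and in most lists fell per kilobase of the longest transcript. The values were 24.1 and 0.253 FPKM for keratins (0.393 as reported), 15.4 and 4.49 for junctions, 7.68 and 1.27 for epithelial regulators, 11.1 and 0.0379 for squamous differentiation, 14.1 and 2.84 for mesenchymal genes, 96.3 and 41.3 for cell cycle control, 11.9 and 4.18 for the integration neighbourhood, 28.0 and 5.74 for antigen presentation, 4.38 (the mean of HBB, which was on in replicate 2 only, and 4.98 without that replicate) and 0.0128 for other cell types, 5.82 and 2.06 for HOX genes, and 35.7 and 12.3 for long noncoding RNAs. For glandular genes the first value was 33.8 FPKM. With 1 replicate left out, the other cell types ranged from 0.0278 to 0.0344 FPKM.

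Genes beyond counting noise numbered 102 to 232 with 1 replicate left out, the lowest without replicate 2, where 2 samples also carry fewer degrees of freedom. The common BCV ranged from 0.0182 without replicate 2 to 0.0220, and the gene-wise dispersion of DESeq2 sat at its floor, a BCV of 0.0001. The median CV was 3.84% to 3.88% with 2 samples and 15.4% with no filter on low counts, where counting noise is largest. The depth of 20287139 to 24976517 counts limits what can be said of genes near 0.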

Other observations

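Further gene groups, drawn up after the values were seen and given without a test, describe the metabolism and surface of these cells. Of 23 glycolytic genes 20 were expressed, where 59.9% of all protein-coding genes were, and 14 were at 100 FPKM or more. Together the 23 held 1.83%, 1.80% and 1.83% of the summed FPKM in replicates 1, 2 and 3. LDHA, which makes lactate, had 1781 ± 38.8 FPKM, GAPDH 1708 ± 20.6, PGK1 909, 883 and 895 and TPI1 803 ± 6.33. The isozymes of other tissues were off, with PKLR at 2, 4 and 3 reads and PGAM2 at none. HK1 (289 ± 4.35 FPKM) lay above HK2 (39.2 ± 1.13) in each replicate.

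Complement genes were uneven. Beside C3, C1R had 68.4, 70.8 and 66.9 FPKM and C1S 61.7, 65.3 and 60.2, and the membrane regulators CD59, CD46 and CD55 had 355 ± 2.30, 93.2 ± 2.49 and 62.4 ± 0.990. C1QA, C1QB, C1QC, C6 and C9 had no read, CFB, which joins C3 in the alternative pathway, had 0.473 ± 0.191 FPKM and SERPING1, the inhibitor of C1R and C1S, had 1, 5 and 1 reads. Of the 20 genes 11 were expressed, where 59.9% of all protein-coding genes were, so the count does not set the group apart.

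Among 12 aldo-keto reductases AKR1B1 stood far above the rest, with AKR1C3, a steroid-converting enzyme, next at 241 ± 9.69 FPKM. The closest relatives of AKR1B1 were low, AKR1B10 with 0.577, 0.341 and 0.784 FPKM and AKR1B15 with 5, 3 and 1 reads. Of 20 receptor tyrosine kinases 12 were expressed, which is near the 59.9% of all protein-coding genes. The highest were EPHA2 with 117, 107 and 119 FPKM and EGFR with 72.6, 70.1 and 72.6. ERBB2 had 40.1 ± 0.127 FPKM, MET 20.2 ± 0.468 and ERBB3 9.62 ± 1.15, while KIT, FLT1 and FLT3 had no read. Of 12 actin-binding genes 11 were expressed. TPM4 had 831 ± 7.55 FPKM, PFN1 773 ± 23.6 and ACTN1 504 ± 7.64. Of the calponins, CNN2 had 165 ± 2.95 FPKM and CNN3 48.0, 44.3 and 48.8, and CNN1, the smooth muscle form, had 1, 0 and 0 reads.

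Chromosomes differed in the share of protein-coding genes expressed. Chromosome 22 had the highest with 68.8% of 423, and X the lowest with 46.6% of 783. Chromosome 11, which holds large olfactory receptor clusters, had 53.1% of 1261. Among expressed genes the median level was highest on chromosome 16 with 33.3 FPKM and lowest on chromosomes 13 and 6 with 13.1 and 13.8.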
